A study of Homo sapiens with 4 samples.

Results

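YTHDF1 is a cytoplasmic reader of N6-methyladenosine (m6A), the most common internal mark of messenger RNA, and the genes described here belong to the Wnt pathway. The 10 genes were FZD5, FZD6, FZD7, LRP5, LRP6, RNF43, APC, AXIN1, CTNNB1 and TCF7L2, chosen by symbol because FZD7 and TCF7L2 are reported YTHDF1 targets elsewhere. In the deposited peak table, 9 of the 10 had at least 1 row, among 7550 genes listed in all, and TCF7L2 had none. RNA immunoprecipitation sequencing (RIP-seq), in which RNA pulled down with a protein is sequenced beside the lysate's own RNA, was carried out in SNU638, an established human gastric cancer cell line. The cells overexpressed YTHDF1, spent 24 h without serum and then received IFN-γ at 10 ng/ml for 24 h. There were 4 libraries, 2 of the YTHDF1 immunoprecipitate (IP-YTHDF1) and 2 of the lysate (Input), and both groups shared the cell line, the overexpression and the IFN-γ. No library without IFN-γ or without overexpressed YTHDF1 was compared, so every value describes enrichment over Input in 1 state and none describes a response. No control pull-down, such as one with IgG, was among the 4 libraries. Binding by YTHDF1 and non-specific pull-down therefore cannot be told apart here.

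In the Wnt pathway, secreted ligands bind a Frizzled receptor together with the co-receptor LRP5 or LRP6. Without a ligand, a destruction complex built on APC and AXIN1 marks β-catenin, the product of CTNNB1, for degradation. With a ligand, β-catenin accumulates and acts in the nucleus with TCF factors such as TCF7L2, while the membrane ubiquitin ligase RNF43 removes Frizzled receptors from the cell surface. The pathway sustains stem cells of the gastrointestinal epithelium, and RNF43, APC and CTNNB1 are recurrently mutated in cancers of that tissue.

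Each row of the table is a window of 50 bp that carries 3 numbers for IP-YTHDF1 against Input, a signal value, a p-value and a q-value. The signal value comes without a stated scale, so it serves here to order windows. No column belongs to a single library. The depth of the libraries and the spread between replicates are therefore unknown here, no test between groups could be run, and the p and q printed are the deposited ones. As far as the values show, q was adjusted within each gene and not over the whole table. A q-value therefore does not account for the number of genes examined, and equal q-values in different genes need not mean equal p-values. Of 5 epithelial marker genes 4 had a window (EPCAM, KRT8, KRT18 and KRT19, but not CDH1), and none of 4 markers of blood, stromal or endothelial cells did (PTPRC, COL1A1, PECAM1 and VIM). The share over all coding genes was 31.8%. A window is a value against Input and not an expression level, so these counts do not check the identity of the cells. A gene without a window may be unbound or too weakly expressed, and the table cannot tell these apart.

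The 9 listed genes held 40 windows. A window was listed for 31.8% of all RefSeq coding genes (6370 of 20056), whether or not SNU638 cells express them, against 9 of these 10. Because the 10 were picked as known pathway genes with results of these data known, that difference was not tested. The strongest window per gene had a median signal value of 2.11 over the 9 genes and 2.23 over all listed coding genes, whose interquartile range spanned 1.94 to 2.56. Of the 9 genes, 4 (LRP6, AXIN1, FZD5 and CTNNB1) lay above that median and 5 (FZD6, APC, RNF43, LRP5 and FZD7) did not. The median number of listed windows per gene was 3 in both sets. No gene has more than 9 rows, a limit at which 852 coding gene symbols stand, so a count of 9 below is read as 9 or more, and the strongest and weakest values of such a gene are those of its listed windows.

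With the q-value held to 0.001 or less, 5 of the 10 genes still had a window, against 21.2% of coding genes. These were FZD5, LRP5, LRP6, AXIN1 and CTNNB1, and the count for FZD7 fell to 0. A signal value of 2 or more was reached by 22.0% of coding genes. There, FZD7 and LRP5 had no window and the other 7 listed genes had one. A Bonferroni limit over the windows counted in all listed genes, a p-value of at most 1.61e-07, was met in 12.5% of coding genes and in 5 of the 10, the same 5 as with the stricter q-value.

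**Figure D1:**
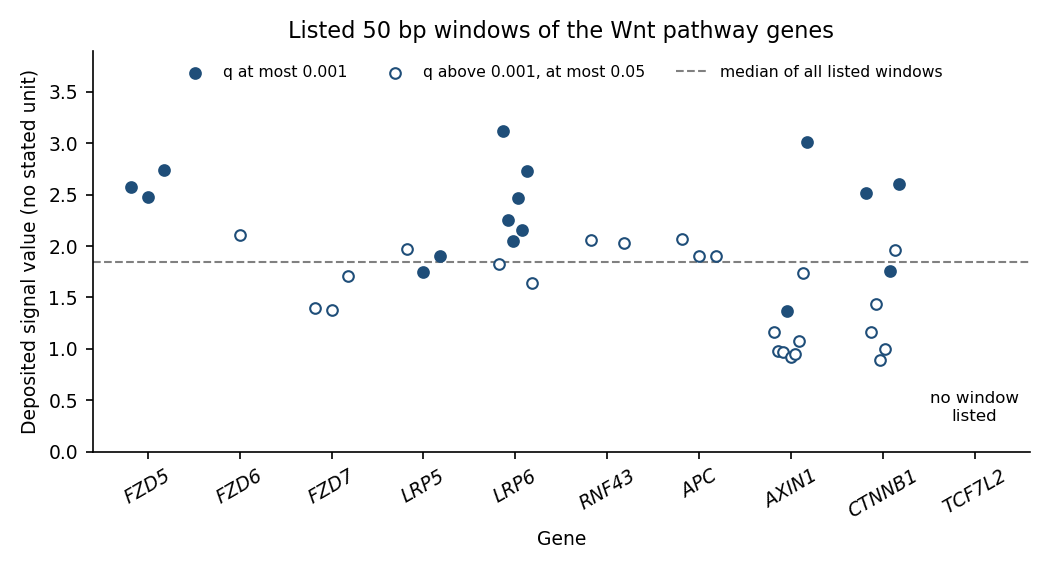
Signal value (vertical axis, no stated unit) of each listed 50 bp window, grouped by gene, with windows of a gene in order of position from left to right. Filled points have a deposited q of 0.001 or less, open points a larger one, and the dashed line is the median of all listed windows, 1.84. FZD5 lies wholly above the line, FZD7 wholly below it, and AXIN1 has a single window at 3.01 above 8 that reach at most 1.74.

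The receptors came first. FZD7, a Frizzled receptor studied as a driver of gastrointestinal cancers, had 3 windows on the plus strand of chromosome 2 (ENSG00000155760, GRCh38), and all of them were weak. The window at 202034738 to 202034787 reached 1.40, with q = 0.0246. Its neighbour at 202034788 to 202034837 reached 1.38, with q = 0.0104, the lowest of the gene. The window at 202035288 to 202035337 reached 1.71, with q = 0.0246. All 3 lay below the median of 1.84 over all listed windows, and the strongest exceeded the strongest window of only 9.1% of listed coding genes. The order by signal value and the order by p-value differed in this gene, since the weakest of the 3 by signal value had the smallest p-value, 0.00017. All 3 windows lay in the first part of the gene, with centres 908, 958 and 1458 bp from its RefSeq start in a gene of 4587 bp.

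FZD5, a Frizzled receptor of the intestinal epithelium, had as many windows as FZD7 but stronger ones. On the minus strand of chromosome 2 (ENSG00000163251), the window at 207768599 to 207768648 scored 2.74, with q = 1.14e-08. The adjacent pair between 207766899 and 207766998 had signal values of 2.57 and 2.48, with q-values of 4.27e-07 and 9.42e-07. The weakest FZD5 window was thus above the strongest FZD7 window, and the strongest FZD5 window exceeded that of 83.3% of listed coding genes. FZD6, a receptor known for planar cell polarity and for restraining β-catenin signalling, had a single window on the plus strand of chromosome 8 (ENSG00000164930), from 103300034 to 103300083. It scored 2.11, with q = 0.0019, higher than the strongest window of 39.9% of listed coding genes.

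The other Frizzled genes give the scale within the family. Of FZD1 to FZD10, 7 had a window, beside 31.8% of all coding genes, and 3 (FZD8, FZD9 and FZD10) had none. That difference was not tested. Compared by the strongest window, FZD3 had 2.89, FZD1 had 2.77, FZD5 had 2.74, FZD4 had 2.64, FZD6 had 2.11, FZD2 had 1.97 and FZD7 had 1.71. FZD7 was the lowest of the listed genes, and without values per library it is not known which neighbours in this order differ beyond their spread. FZD1 and FZD2 are the closest relatives of FZD7 in sequence. FZD2 resembled it in these values, with 4 windows between 1.31 and 1.97 and a lowest q-value of 0.00211. FZD1 had 6 windows between 1.62 and 2.77, the strongest with q = 4.88e-07. Reads that match several relatives could be shared among them, and how such reads were handled is not given in the sources used here.

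**Figure D2:**
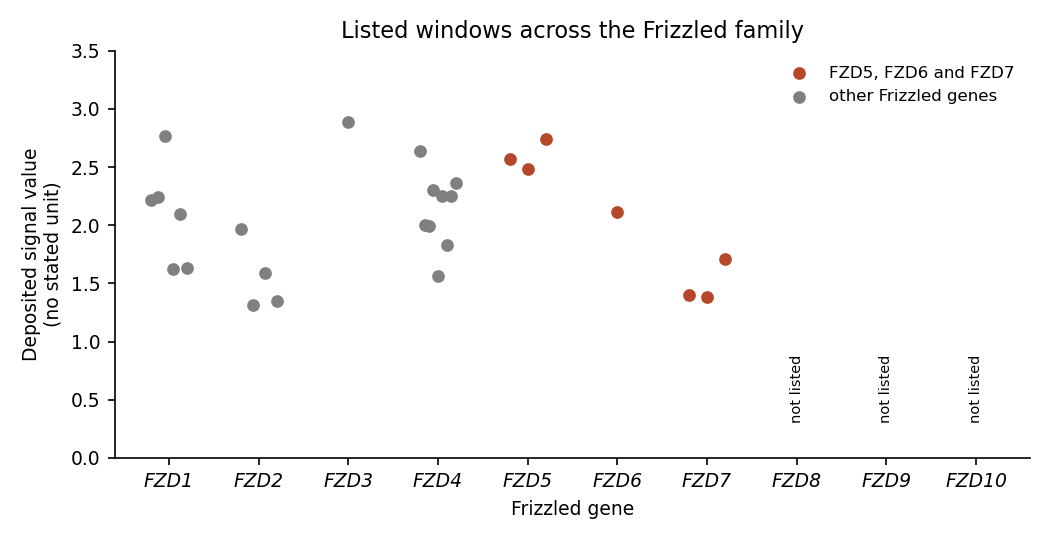
Signal value (vertical axis, no stated unit) of each listed window of the Frizzled genes FZD1 to FZD10, with windows in order of position within a gene. FZD5, FZD6 and FZD7 are coloured and the other family members are grey, and the 3 FZD7 points, at 1.40, 1.38 and 1.71, sit lower than the strongest window of every other listed Frizzled gene.

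The co-receptors differed from each other. LRP6 (ENSG00000070018, minus strand of chromosome 12) had the strongest window of the 10 genes and the longest run of adjacent windows. Its 7 adjacent windows covered 350 bp, from 12244276 to 12244625. In order of position their signal values were 1.83, 3.12, 2.25, 2.05, 2.47, 2.16 and 2.73. The window of 3.12, at 12244326 to 12244375, had a p-value and a q-value listed as 0, and that of 2.73, at the end of the run, had a q-value of 1.53e-09. The values rose and fell along the run, with high windows near either end. A run of 350 bp or more was present in 82 of 6674 listed coding gene symbols (1.2%). That share is limited by the counts, since such a run needs at least 7 windows and the median listed coding gene had 3. The limit of 9 rows can also cut a run short. One further window, at 12266826 to 12266875, scored 1.64, with q = 0.0342, with its centre 193 bp from the RefSeq start. LRP6's strongest window exceeded that of 93.7% of listed coding genes.

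LRP5 (ENSG00000162337, plus strand of chromosome 11) had 3 windows in 2 places. The window at 68312692 to 68312741 scored 1.97, with q = 0.0103. An adjacent pair from 68347892 to 68347991 had signal values of 1.75 and 1.90, with q-values of 4.63e-06 and 2.28e-05. Here too the window with the highest signal value was not the one with the lowest q-value. The strongest LRP5 window was 1.15 lower in signal value than that of LRP6 and exceeded that of 27.3% of listed coding genes.

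RNF43, the ligase that clears Frizzled receptors, had 2 windows on the minus strand of chromosome 17 (ENSG00000108375). They lay at 58358001 to 58358050 and 58358101 to 58358150, with signal values of 2.06 and 2.03 and the same q-value of 0.00278. Both overlapped windows of another gene on the same strand, AC004687.2, whose signal values there were 1.75 and 1.83, so the reads cannot be assigned to 1 of the 2 genes. No other window of the 10 genes overlapped a window of a different gene. ZNRF3, the ligase with the same role, had 9 windows with a strongest listed signal value of 3.16 at a q-value of 1.49e-14.

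In the destruction complex, AXIN1, the scaffold, had 9 windows (ENSG00000103126, minus strand of chromosome 16), the largest number that the table lists for any gene. Among those listed, a single one was strong. It lay at 352441 to 352490, with its centre 257 bp from the RefSeq start, and scored 3.01 with q = 1.51e-05. That was higher than the strongest window of 91.9% of listed coding genes. The other 8 listed ran from 0.92 to 1.74, all below the median of all listed windows. Of these, 6 lay between 346191 and 347090, and the remaining pair lay farther along the gene, at 293641 to 293690 and 304341 to 304390. The median over the 9 listed windows, 1.08, was higher than that of only 1.5% of listed coding genes. The position of AXIN1 thus depended on whether its strongest or its median listed window was taken. The count of 9 could be checked against the q-values. They fitted a Benjamini-Hochberg adjustment within the gene over 120 windows, and under it the listed window with the largest q-value, 0.0457, stood at position 12. At least 12 AXIN1 windows therefore passed, and at least 3 of them are not among the rows used here. By the same fit, at least 1 unlisted window had a p-value no larger than 1.51e-05, the next smallest deposited p-value among the listed ones. In every gene the rows were numbered from low to high coordinate, and no number exceeded 9. If the rows were cut in that order, the unlisted AXIN1 windows lie beyond 352490, toward the start of this minus-strand gene. Their signal values are not known, so the gene may hold further strong windows.

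APC, the tumour suppressor on which the complex is built, had 3 windows of even strength on the plus strand of chromosome 5 (ENSG00000134982). An adjacent pair from 112707649 to 112707748 had signal values of 2.07 and 1.90, with q-values of 0.0028 and 0.00689. The third, at 112754949 to 112754998, had 1.90 and the same q-value of 0.00689. No APC window reached a q-value of 0.001. The relatives of both scaffolds were also listed. AXIN2 had 9 listed windows, between 1.10 and 2.81, and APC2 had 3, at 1.82, 2.71 and 1.82.

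CTNNB1, which encodes β-catenin, had 8 windows on the plus strand of chromosome 3 (ENSG00000168036), the strongest of which lay far apart. The window at 41233392 to 41233441 scored 2.60, with q = 2e-07, and its neighbour at 41233342 to 41233391 had 1.96. At the other end of the gene, the window at 41199492 to 41199541 scored 2.52, with q = 3.14e-07. Between them, 4 windows from 41224542 to 41225191 were weaker, with signal values of 1.44, 0.89, 1.00 and 1.76, and the window at 41199592 to 41199641 had 1.16. The strongest window exceeded that of 76.8% of listed coding genes. The 8 windows were 15.4% of the 52 windows counted as tested in CTNNB1, a larger share than in 82.1% of the listed coding genes with fewer than 9 windows.

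The CTNNB1 window at the start of the gene was the only window of the 10 genes that fell wholly inside a RefSeq sequence around a transcription start (GRCh38.p14). Its first 30 bases, chr3:41199492-41199521 on the plus strand, are shown because they place this window across the start itself. Lower case marks the 13 bases before the RefSeq start at 41199505, and capitals mark transcribed bases:
CTNNB1 window, first 30 bases: gcggcgccattttAAGCCTCTCGGTCTGTG
The m6A consensus was searched as 18 pentamers, an A, G or T, then an A or G, then A and C, then an A, C or T. None occurred in the 50 bases of the window on the sense strand. At least 1 occurred when the opposite strand, which the transcript does not carry, was included. Among the 410 listed coding windows that fell wholly inside such a sequence, 38.8% held a pentamer on the sense strand and 62.9% on either strand, against 49.3% and 75.6% of the same 50 positions as the CTNNB1 window in all 35116 RefSeq start sequences. The sets are not matched, since the 410 windows lie at varied positions around the start and the median share of G or C was 72.0% in them and 60.0% in the comparison sequences, and the part of this in the motif shares was not tested. GGACT was present in 6.1% and 4.7%. These shares cover windows near starts only and can include bases before a start, as in the CTNNB1 window. They therefore do not measure the motif content of bound RNA or of all listed windows. In its own motif search, the paper reports that YTHDF1 preferred the m6A consensus, which it names DRACH. That preference was not tested here. Whether any of the motifs counted here carried m6A was not tested. Of the CTNNB1 window 68.0% was G or C.

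TCF7L2, the nuclear partner of β-catenin in the intestinal epithelium, had no row. The related genes TCF7, TCF7L1 and LEF1 were not listed either.

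Along the genes, the windows lay both at and away from the start. A window within 500 bp of a RefSeq start was present in 5 of the 9 listed genes, LRP5, LRP6, APC, AXIN1 and CTNNB1, beside 51.4% of listed coding genes. These were 7 of the 40 windows (17.5%), beside 29.6% of all coding windows. The strongest window was among them in LRP5, APC and AXIN1, 3 of 9 genes, beside 36.9% of listed coding genes. All these shares cover listed windows only. Genes at the limit of 9 rows, such as AXIN1, may lack windows at the high-coordinate end. That end holds the start on the minus strand and the 3′ end on the plus strand. The shares given for coding genes and coding windows include such genes, so they may be too low or too high. In LRP5 the near start was one inside the gene, 126 bp from the window's centre, whereas the gene's 5′ end was 14305 bp away. The 3 Frizzled genes had no window within 500 bp of a start. Both RNF43 windows lay far from the 5′ end, at 59508 and 59408 bp, in a gene of 65035 bp.

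**Figure D3:**
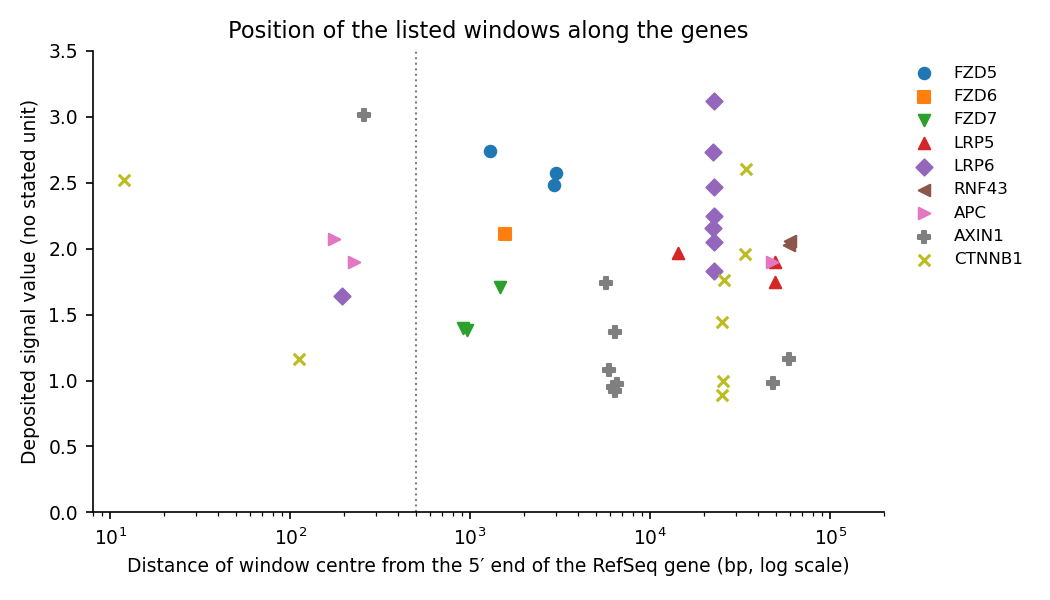
Signal value (vertical axis, no stated unit) of the 40 windows against the distance of the window's centre from the 5′ end of the RefSeq gene in bp (horizontal axis, log scale), 1 marker per gene. The dotted line marks 500 bp, left of which lie windows of LRP6, APC, AXIN1 and CTNNB1, and the LRP6 run forms a column at about 22 kb (22443 to 22743 bp) with values from 1.83 to 3.12.

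Counted against the windows tested, the listed ones were few. In the 8 listed genes with fewer than 9 windows they made up 3.5% (LRP5, 85 tested) to 15.4% (CTNNB1) of the windows. The median was 6.0%, beside 8.3% in listed coding genes with fewer than 9 windows. FZD7 had 3 listed of 61 tested (4.9%), and LRP6 had 8 of 56 (14.3%).

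A wider list of 103 Wnt genes, grouped by role and containing the 10, placed them in the pathway. A window was listed for 44 of the 103 (42.7%), and for 35 of the 93 others when the 10 were left out (37.6%), beside 31.8% of all coding genes. The share differed among roles. In the destruction complex 13 of 14 genes had a window, with strongest values from 2.04 to 3.01 and a median of 2.66. BTRC was the exception. Among ligands 3 of 19 had one, and among secreted or surface inhibitors 1 of 15. No test of these differences was run, and whether genes without a window are expressed in SNU638 was not tested.

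In the destruction complex AXIN1 had the strongest window, and GSK3B, CSNK1A1, CSNK1D and CSNK1E, kinases that phosphorylate β-catenin or its partners, had 5, 6, 9 and 9 windows with strongest values of 2.7, 2.48, 2.43 and 2.66. TNKS and TNKS2, which mark axin for degradation, had 8 and 5, with strongest values of 2.85 and 2.77, and AMER1, an APC-binding protein, had 5, with 2.63. Both ligases of receptor turnover and 10 of 15 receptors were listed, beside 31.8% of all coding genes. DVL1, which relays the signal from Frizzled, reached 2.96 with 3 windows, and DVL3 had 7 windows with a strongest value of 2.38. DVL2 was not listed.

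Among 16 nuclear factors, counting β-catenin, 8 were listed, and CTNNB1 had the strongest window. The coactivators CREBBP and EP300 had 9 listed windows each, with strongest listed values of 2.53 and 2.46. BCL9L and PYGO2, which link β-catenin to transcription, also had 9 each, with 1.96 and 2.39, and the corepressor TLE1 had 5, with 2.11. WNT5B, a ligand best known for signalling without β-catenin, had 9 listed windows and a strongest listed value of 3.02, the highest among the 3 listed ligands. The strongest windows of the remaining roles were 2.07 in WLS, which carries ligands to the cell surface, 1.88 in LGR4, an R-spondin receptor, and 2.24 in KREMEN1, a receptor of Dickkopf inhibitors. Of 11 target genes 3 were listed (27.3%), near the 31.8% of all coding genes. EPHB2 had the highest value, 2.36, and CCND1, a cyclin, had 8 windows with a strongest value of 2.05. MYC had 4 windows and a strongest value of 2.09.

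**Figure D4:**
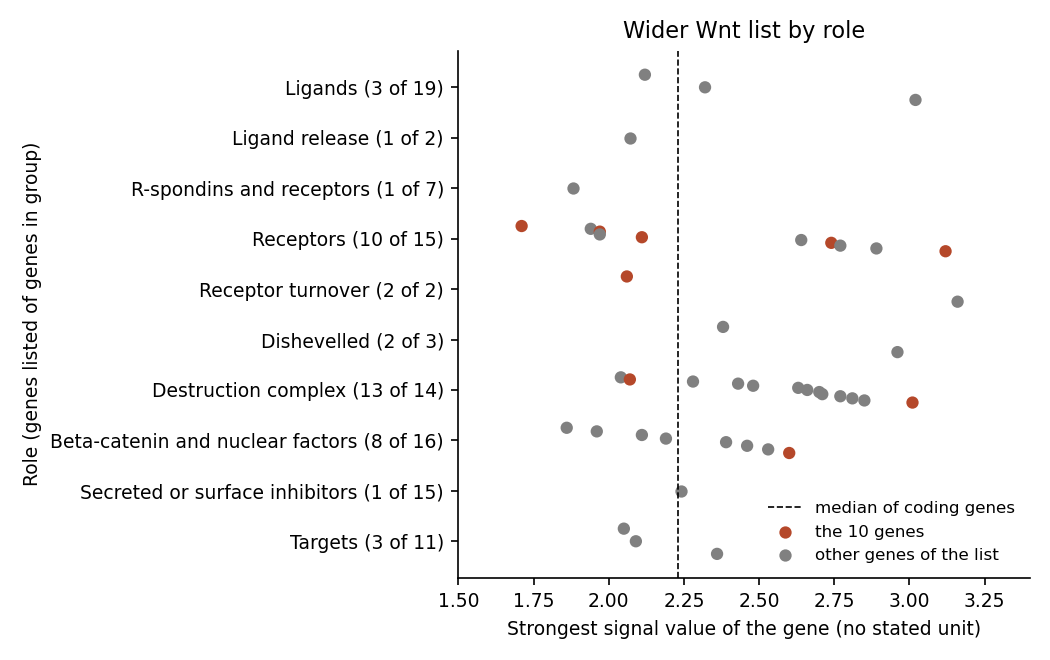
Strongest signal value of each listed gene of the wider Wnt list (horizontal axis, no stated unit) by role, with the number of genes listed of those in the role beside its name. Coloured points are the 9 listed of the 10 genes, grey points are the others, and the dashed line is the median over listed coding genes, 2.23. In the destruction complex all listed genes but GSK3A and APC lie above the line, and FZD7, at 1.71, is the lowest point of the plot.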

How the data were processed

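RIP-seq libraries of SNU638 cells (2 IP-YTHDF1, 2 Input, labelled as biological replicates) were made by the authors with a strand-specific, ribosomal RNA-depleting kit. Per the methods, antibody to FLAG or IgG was used. The submitters' processing notes name STAR 2.7.3a and GRCh38. The peak caller is not given in the sources used here. Per a figure legend of the study, protein-coding peaks were taken as the union of the replicates, so a listed window may have been called in 1 replicate alone. Whether the deposited table is that union is not stated there. The paper's count of genes with enriched mRNA is smaller than the 6679 coding genes listed here, so the sets are not the same. The authors deposited 1 table of annotated windows, with a signal score, a rank score, a p-value and a q-value per window, and 0 columns of values per library. Depth is therefore unknown.

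Of 26820 rows, 1 exact repeat was dropped. Starts, counted from 0 in the table, are printed from 1. Of 6674 coding symbols, 6370 (95.4%) matched 1 of 20056 RefSeq coding genes by symbol or unambiguous synonym. The windows tested per gene were taken as the largest product of q-value and position divided by p-value, a lower bound in genes with 9 listed windows. How close that bound lies to the true number in such genes was not tested. Starts came from RefSeq (GRCh38.p14). The members, the lists and the naming rule (all 10 genes, then in each role the gene with the strongest window and those with 5 or more) were chosen with earlier results of these data known. Python 3.11.15, pandas 2.3.3, NumPy 2.4.6 and matplotlib 3.10.9 were used.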

Additional observations from a re-analysis of the deposited data

How the results depend on the processing

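The number of the 10 genes with a window, 9 in the deposited table, was 5 at a q-value of at most 0.001 and 5 under the Bonferroni limit, and it was 7 for signal values of 2 or more. Their 40 windows became 16 at the stricter q-value, 16 for signal values of 2 or more and 27 when touching windows were joined. The fewer windows follow from the stricter limits. The median of the strongest signal values, 2.11, was 1.90 when each gene's median window was taken and 2.74 over the 5 genes left at the stricter q-value. The percentile of FZD7 among listed coding genes, 9.1, was 9.2 by the median window and 9.1 among listed genes with the same number of windows. The wider list of 103 genes kept 34 and 37 listed genes, of 44, at a q-value of at most 0.001 and for signal values of 2 or more, respectively. Over all coding genes the share went from 31.8% to 21.2% and 22.0% at the same limits, and the difference was not tested. The alternatives for TCF7L2 gave no value because it has no row, and the motif alternative over all windows was not run because no genome sequence was used. No paired analysis was possible because no column belongs to a single library. Without depth or replicate spread, a difference between 2 signal values has no error here.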
